A study of Mus musculus with 9 samples.

Results

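The 36 aminoacyl-tRNA synthetase genes examined here each had a BAP1 binding site at their start in Ba/F3 cells. They were taken by name from the 22367 protein-coding genes of the mm9 annotation, and 36 of 36 names matched. The enzymes were divided by name into 20 cytosolic enzymes and 16 mitochondrial enzymes, whose symbols end in 2. Kars and Gars were counted as cytosolic, although each is a single gene known to supply both compartments.

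BAP1 is the deubiquitinase that removes the ubiquitin of the histone mark H2AK119ub, and Ba/F3 is a murine B cell precursor line that grows in IL-3. The series held 9 ChIP-Seq samples, of which 2 gave the list of 13164 BAP1 peaks. These were an anti-BAP1 ChIP from wild type cells (WT) and an anti-FLAG ChIP from cells that stably expressed triple-FLAG-tagged BAP1 (BAP1-FLAGx3). Of the rest, 3 were H2AK119ub ChIP samples, from WT cells and from the Bap1 knockout clones KO3 and KO4, and 4 were input DNA. They were not analysed here. Each of the 2 immunoprecipitations was sequenced once, the cells were a single line, and the list gave no height or score. It also did not say which antibody gave a peak. Replicate error and depth are therefore unknown, and the intervals below cover counting error over genes only. Genes are not replicates of the ChIP, so no p-value is given.

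Aminoacyl-tRNA synthetases join each amino acid to its tRNAs and so feed the ribosome. Cytosolic and mitochondrial translation use separate sets of enzymes, all encoded in the nucleus, and they fall into class I and class II by the fold of the catalytic domain. When an amino acid runs short, uncharged tRNA activates the kinase GCN2 (Eif2ak4), and the transcription factor ATF4 then raises many cytosolic synthetase genes through an amino acid response element. This regulation is background and was not measured in these cells.

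The sequences below show what lay under the peaks. The first set gives the amino acid response element, spelled TGATGNAA or its reverse complement, at 6 of the 7 synthetase genes that held it inside a BAP1 peak. Each stretch is 30 bases of mm9, 5′ to 3′ on the strand of the gene, with the element in capitals.
Aars (chr8:113557740-113557769, plus strand): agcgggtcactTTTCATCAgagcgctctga
Cars (chr7:150785950-150785979, minus strand): cggcgccgcggTTGCATCAgattctggaag
Gars (chr6:54987954-54987983, plus strand): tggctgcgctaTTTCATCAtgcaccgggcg
Iars (chr13:49777495-49777524, plus strand): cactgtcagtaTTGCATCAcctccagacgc
Tars (chr15:11329410-11329439, minus strand): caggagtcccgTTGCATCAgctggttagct
Yars (chr4:128867139-128867168, plus strand): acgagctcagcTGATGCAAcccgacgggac

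The element stood within 32 bp of the nearest own annotated start in 7 of 7 genes. Cars had 10 annotated TSSs, Iars and Yars 9 and Aars 7, while Gars, Nars and Tars had 1. More TSSs can only shorten this distance, and it was not compared with that in other genes. From the nearest own TSS, the element was centred 25 bp upstream in Aars, 3 bp upstream in Cars, 27 bp upstream in Gars and 11 bp upstream in Tars. It lay downstream in the others, by 10 bp in Iars, by 32 bp in Nars and by 7 bp in Yars. In Aars and Cars the element lay inside the gene, downstream of its first base. In Cars the TSS nearest to the element was also not the one nearest to the peak middle. Measured from the middle of the peak, the element was 4 bp away in Tars, 5 bp in Aars, 20 bp in Iars, 22 bp in Gars, 30 bp in Cars, 47 bp in Nars and 91 bp in Yars. The Yars element was thus near the edge of its 200 bp peak, and in the other 6 it was within 47 bp of the middle. In 5 of the 7 genes the element ran on the strand opposite to the gene, and in Nars and Yars it ran on the same strand.

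The wider set gives, for 7 genes, the part of the nearest peak that lay outside every annotated exon, again in mm9 and on the strand of the gene. Capitals mark every match to one of 10 motifs searched on both strands. The motifs seen here are ETS (CCGGAAG), the site of the ETS family, SP and KLF (GGGCGG), the GC box, NF-Y (CCAAT), the site of nuclear factor Y, YY1 (AAGATGGCG), the site of a zinc finger factor that can bind BAP1, NRF1 (GCGCATGCG), the site of nuclear respiratory factor 1, and the amino acid response element. Sars and Farsa are shown as cytosolic genes with an ETS match, Farsa also with YY1, Mars2 as a mitochondrial gene with an ETS match, and Vars2 and Wars2 as the members with NRF1. In Vars2 the NRF1 matches stood on either side of a GC box.
Gars (chr6:54987847-54987994, plus strand): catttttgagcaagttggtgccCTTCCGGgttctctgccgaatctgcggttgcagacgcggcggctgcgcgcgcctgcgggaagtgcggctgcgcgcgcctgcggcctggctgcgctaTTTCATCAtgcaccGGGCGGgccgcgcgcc
Tars (chr15:11329414-11329520, minus strand): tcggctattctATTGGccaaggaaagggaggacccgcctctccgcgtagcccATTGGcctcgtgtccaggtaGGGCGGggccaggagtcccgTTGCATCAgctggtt
Sars (chr3:108248128-108248264, minus strand): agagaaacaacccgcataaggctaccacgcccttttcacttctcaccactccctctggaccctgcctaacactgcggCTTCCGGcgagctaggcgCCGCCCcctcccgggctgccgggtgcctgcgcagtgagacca
Farsa (chr8:87380775-87380887, plus strand): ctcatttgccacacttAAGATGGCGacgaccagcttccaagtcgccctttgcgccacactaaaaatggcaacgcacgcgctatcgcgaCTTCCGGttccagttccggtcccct
Mars2 (chr1:55293875-55294020, plus strand): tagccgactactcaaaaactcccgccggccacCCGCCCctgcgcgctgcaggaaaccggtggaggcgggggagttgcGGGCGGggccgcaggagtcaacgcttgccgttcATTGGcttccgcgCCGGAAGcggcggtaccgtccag
Vars2 (chr17:35804538-35804666, minus strand): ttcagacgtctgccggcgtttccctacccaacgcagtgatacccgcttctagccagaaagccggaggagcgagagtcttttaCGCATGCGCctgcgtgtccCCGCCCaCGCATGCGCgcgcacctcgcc
Wars2 (chr3:98944898-98944990, plus strand): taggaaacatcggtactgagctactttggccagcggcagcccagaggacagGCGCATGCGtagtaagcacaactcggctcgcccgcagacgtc

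A BAP1 peak with its middle within 1 kb of an own TSS was found at 36 of 36 members (100%, Wilson 95% interval 90.4 to 100%). The share among all protein-coding genes was 39.6% (8850 of 22367). The members had CpG-rich starts, with an observed over expected CpG ratio, in the 500 bp before and the 500 bp after the TSS, from 0.507 in Tars2 to 1.05 in Mars2. Their median ratio was 0.735, against 0.546 for all protein-coding genes. Among protein-coding genes with a ratio at least as high as that of Tars2, 66.3% (7801 of 11759, 65.5 to 67.2%) had a peak. The median GC content of the same stretch was 56.1% in the members and 54.9% in all protein-coding genes. It was 60.9% in those with a ratio at least as high as that of Tars2, a set without an upper limit.

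The cytosolic and mitochondrial enzymes did not differ in having a peak, as 20 of 20 (83.9 to 100%) and 16 of 16 (80.6 to 100%) had one. The difference was 0 percentage points, with a Newcombe 95% interval from -16.1 to 19.4. With so few genes, a gap of that size in either direction would not have been detectable. Class I enzymes had a peak in 18 of 18 genes, which leaves out Eprs, whose protein holds a glutamyl (class I) and a prolyl (class II) enzyme, and class II enzymes in 17 of 17.

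The peaks sat on the starts themselves. The middle of the nearest peak was a median of 26.5 bp from an own TSS (quartiles 11.8 and 53.5 bp, range 1 to 209 bp), and the median was 46.0 bp (19.0 and 91.0 bp) over the 8850 protein-coding genes with a peak. The members had a median of 4 annotated TSSs, against 2 in all protein-coding genes, and more TSSs can only shorten this distance. From the TSS of the longest transcript alone the member median was 40.5 bp. The same median over all genes with a peak was not computed, so the 2 sets are not compared on equal terms. With every own TSS used, the median was 33.5 bp in the cytosolic genes (1 to 142 bp) and 24.0 bp in the mitochondrial genes (2 to 209 bp), so the ranges overlapped. The closest were Cars and Farsb, both at 1 bp, which encode the cysteinyl enzyme and the beta subunit of the phenylalanyl enzyme, and the mitochondrial tryptophanyl gene Wars2, at 2 bp. The nearest middle was upstream of the TSS in 24 of 36 members (66.7%, 50.3 to 79.8%) and in 75.0% of all protein-coding genes with a peak. It was upstream in 14 of 20 cytosolic and 10 of 16 mitochondrial genes.

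Among the cytosolic genes with the nearest middle upstream, it lay 4 bp from the TSS in Dars, 7 bp in Tars, 14 bp in Farsa, 15 bp in Nars, 30 bp in Aars, 37 bp in Sars, 42 bp in Kars, 49 bp in Gars, 52 bp in Wars, 58 bp in Qars, 71 bp in Rars and 90 bp in Vars, and over 100 bp away in Eprs and Lars. Among those with it downstream, it lay 1 bp from the TSS in Cars and Farsb, 12 bp in Hars and Mars, 30 bp in Iars and 98 bp in Yars. In the mitochondrial genes it lay upstream by 4 bp in Iars2 and Nars2, 11 bp in Yars2, 23 bp in Lars2, 24 bp in Aars2 and Rars2, 29 bp in Vars2, 38 bp in Hars2, 47 bp in Mars2 and 137 bp in Ears2. It lay downstream by 2 bp in Wars2, 7 bp in Cars2, 14 bp in Pars2, 24 bp in Tars2, 73 bp in Sars2 and 209 bp in Fars2. The distances of both compartments overlapped up to the 142 bp of Lars, and of all members only Fars2 lay farther out.

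A peak interval covered an own TSS in 32 of 36 members (88.9%, 74.7 to 95.6%). Over all protein-coding genes the share was 30.7% (6875 of 22367), which counts genes without a peak. The 6875 were among the 8850 protein-coding genes with a peak. Among all protein-coding genes with a CpG ratio of at least 0.507 the share was 52.2%. The shares were 18 of 20 for the cytosolic genes and 14 of 16 for the mitochondrial genes, a difference of 2.50 percentage points (-19.5 to 27.1). The exceptions were Ears2, Eprs, Lars and Fars2. Their nearest middles lay 137 bp upstream in Ears2 (mitochondrial glutamyl enzyme), 116 bp upstream in Eprs, 142 bp upstream in Lars (leucyl enzyme) and 209 bp downstream in Fars2 (mitochondrial phenylalanyl enzyme). These were also the 4 members with a nearest middle more than 100 bp from a TSS. Of all protein-coding genes with a peak, 77.8% had it within 100 bp.

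**Figure D1:**
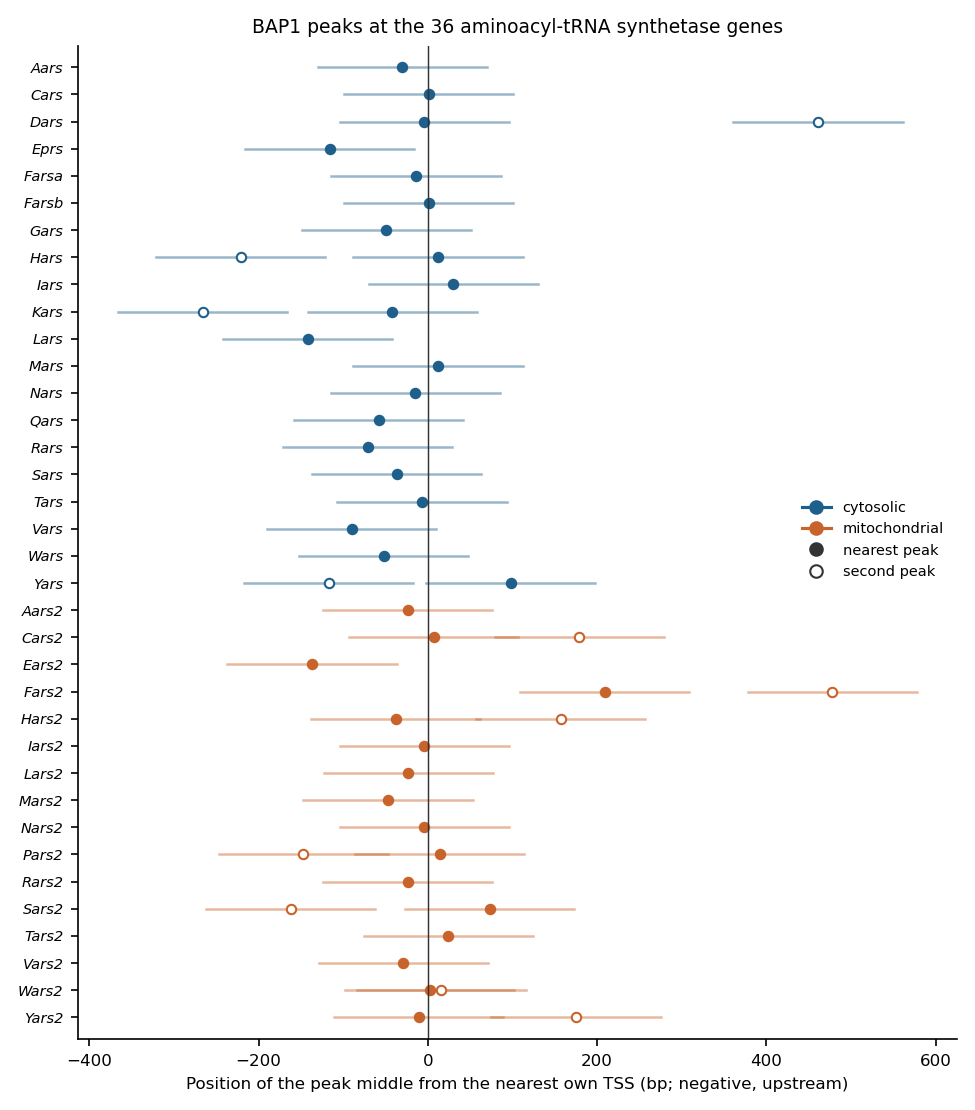
Positions of the BAP1 peaks within 1 kb of each of the 36 synthetase genes, in bp from the nearest own TSS, with cytosolic genes in blue and mitochondrial genes in orange. Dots are peak middles, lines the 200 bp intervals, filled dots the nearest peak and open dots the other peak; where a gene has several TSSs, its peaks may be placed from different ones. The filled dots crowd around 0, and the farthest is Fars2 at 209 bp.

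By annotation, the nearest middle lay upstream of the gene's first base in 22 members, in an exon outside the coding sequence in 11, in a coding exon in 3 (Pars2, Sars2 and Yars) and in an intron in 0. No member had a peak middle between 478 bp, the farthest inside the 1 kb limit (Fars2), and 2217 bp, the nearest outside it (Qars, the glutaminyl enzyme). Inside the genes, beyond 1 kb of their own starts, 3 members had a further peak. In Aars it lay in an exon outside the coding sequence, 8414 bp downstream of the nearest of 7 own TSSs and 22424 bp downstream of that of the longest transcript. In Aars2 it lay 10936 bp downstream of the TSS, in a coding exon, and in Lars 31124 bp downstream of the nearest own TSS, in an intron. Between 1 kb and 50 kb from their starts, 8 members had 0 further peaks, and Farsa had the most, at 10.

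Of the 10 motifs, ETS and the amino acid response element were those whose share, in percentage points, differed most between the synthetase genes and all protein-coding genes with a peak. ETS was found in a peak of 19 of 36 members (52.8%) and of 2256 of the 8850 protein-coding genes with a peak (25.5%). It was present in 13 of 20 cytosolic genes (65.0%) and 6 of 16 mitochondrial genes (37.5%), a difference of 27.5 percentage points with an interval that held 0 (-4.76 to 52.9). Hars and Hars2 share their peaks, so that 1 stretch with ETS matches counted for both compartments.

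The amino acid response element was found in a peak of 7 of 36 members (19.4%). Among all protein-coding genes with a peak it was found in 83 of 8850 (0.938%). The 7 genes were Aars, Cars, Gars, Iars, Nars, Tars and Yars, which encode the alanyl, cysteinyl, glycyl, isoleucyl, asparaginyl, threonyl and tyrosyl enzymes. They made up 35.0% of the 20 genes counted as cytosolic, and none of the 16 mitochondrial genes held the element in a peak. Of the 7, Gars also supplies mitochondria, and this contrast was not run without it. The difference was 35.0 percentage points (9.31 to 56.7), so its interval did not reach 0. This contrast was chosen after the peaks had been seen. Among the 10 motifs searched, it was the only contrast between compartments whose interval left out 0. The intervals were not adjusted for the number of motifs, so this one is a description of these genes and not a test. Counted by peak, 7 of the 45 distinct peaks at members held the element (15.6%), against 78 of the 9805 peaks within 1 kb of any protein-coding gene (0.796%). By class, it was found in 3 of 18 class I and 4 of 17 class II genes, and of the 8 enzymes of the multisynthetase complex, in Iars alone.

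The same difference was seen when promoters were searched in place of peaks, from 250 bp before to 50 bp after the TSS of the longest transcript. At most members this stretch overlaps the peak, so the search is not an independent check. The element was then found in 7 of 20 cytosolic genes, in 0 of 16 mitochondrial genes and in 3.52% of all 22367 promoters. Mars entered with an element outside its peak, and Yars left. Among the promoters of genes with a peak the share was 1.66%, below that of all promoters. ETS was found in 47.2% of member promoters, 10.8% of all promoters and 22.5% of promoters of genes with a peak.

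The YY1 and NRF1 counts were higher in the mitochondrial genes, but both intervals held 0. YY1 was present in a peak of Aars2, Fars2, Wars2 and Yars2 and of the cytosolic gene Farsa, that is in 4 of 16 mitochondrial and 1 of 20 cytosolic genes, and in 4.75% of all protein-coding genes with a peak. The difference of -20.0 percentage points had an interval from -44.8 to 3.79. NRF1 was present in 2 of 16 mitochondrial genes (Vars2 and Wars2), in 0 of 20 cytosolic genes and in 5.19% of genes with a peak, and the difference was -12.5 percentage points (-36.0 to 5.96). In Aars2, Wars2 and Yars2 the YY1 match lay 14, 7 and 1 bp downstream of the nearest own TSS. It lay 471 bp downstream in Fars2, in the farther peak, and 93 bp upstream in Farsa.

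The common promoter motifs stood closer to their share among all genes with a peak. SP and KLF matches were found in a peak of 69.4% of members and 74.6% of genes with a peak, and NF-Y matches in 41.7% and 35.7%. The E-box (CACGTG), the site of MYC and related factors, was found in Farsb, Iars and Tars, which is 8.33% of members, against 9.90%. ZNF143 and THAP11 (ACTACANNT) was found in Lars alone, 2.78% of members, against 5.01% of genes with a peak. CRE (TGACGTCA), the cyclic AMP element, and FOXK (GTAAACA) were found in a peak of 0 members, against 4.24% and 2.52% of genes with a peak. A match shows only that the letters are present, and binding of these factors was not measured.

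**Figure D2:**
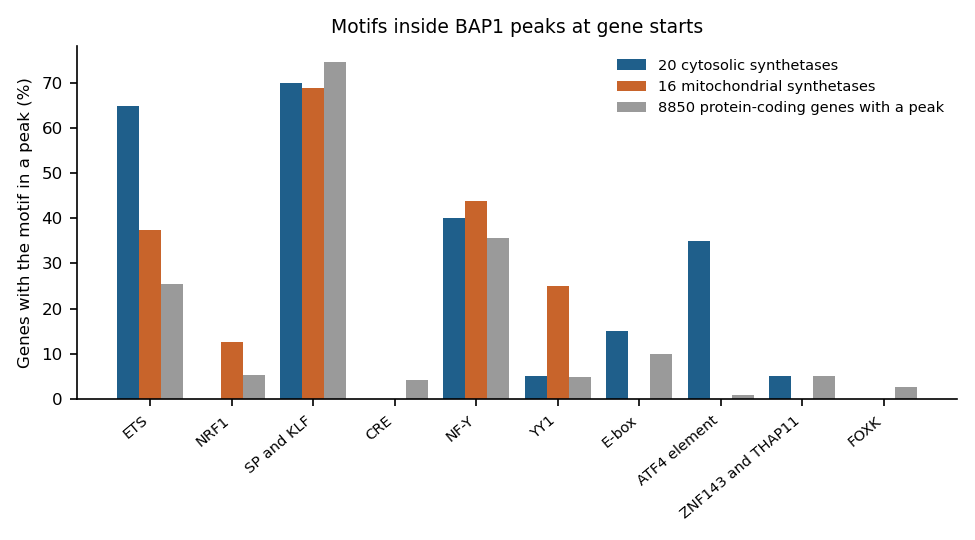
Share of genes (%, vertical axis) with each of the 10 motifs in a BAP1 peak within 1 kb of a TSS, for 20 cytosolic synthetase genes (blue), 16 mitochondrial synthetase genes (orange) and the 8850 protein-coding genes with a peak (grey). The ATF4 element, the amino acid response element of the text, reaches 35.0% in the cytosolic genes, 0 in the mitochondrial genes and 0.938% in all genes with a peak.

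**Figure D3:**
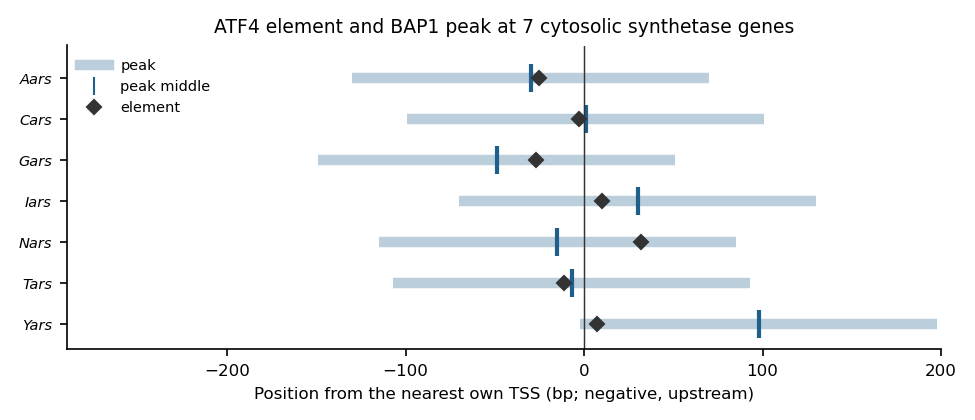
Place of the amino acid response element (diamonds) in the nearest BAP1 peak (bars, with the peak middle as a tick) of 7 cytosolic synthetase genes, in bp from the nearest own TSS. The elements lie between 27 bp upstream (Gars) and 32 bp downstream (Nars) of the nearest own TSS. In Cars the peak and the element are placed from different TSSs, and the element is 30 bp from the peak middle.

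The number of peaks varied among the members. At 25 members 1 peak was found and at 11 members 2 peaks, giving 47 peaks by gene and 45 distinct peaks, since Hars and Hars2 share 2. The share with more than 1 was 30.6% (18 to 46.9%), near the 25.5% of all protein-coding genes with a peak. The 11 were Dars, Hars, Kars and Yars among the cytosolic genes and Cars2, Fars2, Hars2, Pars2, Sars2, Wars2 and Yars2 among the mitochondrial genes. This was 4 of 20 (20.0%) and 7 of 16 (43.8%), a difference of -23.8 percentage points whose interval held 0 (-49.7 to 6.14).

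Of the farther peaks at the cytosolic genes, that of Dars lay 461 bp downstream of the nearest own TSS, in an intron. Those of Yars, Hars and Kars lay 117, 221 and 266 bp upstream. At the mitochondrial genes the farther peak lay downstream in Wars2 (16 bp), Hars2 (157 bp), Yars2 (175 bp), Cars2 (179 bp) and Fars2 (478 bp), and upstream in Pars2 (147 bp) and Sars2 (162 bp).

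The middles of the paired peaks were 107 to 774 bp apart, with a median of 233 bp, and the median for all protein-coding genes was 281 bp. They were closest in Wars2, at 107 bp, followed by Pars2 at 161 bp and Cars2 at 199 bp, so that in these 3 genes the intervals overlapped. In Yars2, whose peaks were 774 bp apart, the far peak lay in a coding exon. In the whole list 1624 peaks (12.3%) overlapped another, and since the antibody behind a peak is unknown, 2 binding places cannot be told apart from 2 calls of one place. With peaks within 500 bp merged, 1 member (Yars2) still had more than 1 peak.

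Divergent promoters, in which a protein-coding gene has a TSS on the opposite strand within 1 kb, were found at 10 of 36 members (27.8%, 15.8 to 44.0%), near the 24.8% of all protein-coding genes with a peak (2195 of 8850). The share among all protein-coding genes, bound or not, was 12.0%, and among those with a CpG ratio of at least 0.507 it was 19.0%. Hars and Hars2, the cytosolic and mitochondrial histidyl enzymes, are each other's partner, with starts 26 bp apart. The others were Ears2 with Ubfd1 (55 bp), Fars2 with Lyrm4 (54 bp), Kars with Terf2ip (36 bp), Rars2 with Orc3 (13 bp), Sars2 with Mrps12 (171 bp), Vars with D17H6S56E-5 (31 bp), Wars with Wdr25 (98 bp) and Yars with S100pbp (33 bp). Lyrm4 serves iron-sulfur cluster assembly, Terf2ip telomere protection and Orc3 the origin recognition complex. Mrps12 encodes a protein of the mitochondrial ribosome.

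More than 1 peak was found at 6 of the 10 members with a divergent partner (60.0%) and at 5 of the other 26 (19.2%), a difference of 40.8 percentage points (6.52 to 66.3). Over all protein-coding genes with a peak the same shares were 32.6% (716 of 2195) and 23.1% (1540 of 6655). The difference does not hold when peaks within 500 bp are merged, which leaves more than 1 peak at 0 of 10 and 1 of 26 members, a difference of -3.85 percentage points (-18.9 to 24.1). With a 5 kb window it was 25.4 (-9.15 to 53.1). Hars and Hars2 enter this count with the same pair of peaks. The comparison was made after the peaks of the members had been seen.

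At several of these starts the peak was nearer to the partner than to the synthetase. An own TSS was the nearest annotated TSS to the nearest peak in 29 of 36 members. In Ears2 the middle was 137 bp from the own TSS and 22 bp from that of Ubfd1. In Kars the distances were 42 bp and 6 bp (Terf2ip), in Rars2 24 bp and 11 bp (Orc3), in Vars 90 bp and 59 bp, in Wars 52 bp and 46 bp (Wdr25), and in Hars2 38 bp and 12 bp (Hars). The nearest other start to the Eprs peak, at 114 bp against 116 bp, was that of the lincRNA 4930532G15Rik. In Sars2 the farther peak lay 9 bp from the Mrps12 start, and in Yars the farther one lay 17 bp from that of S100pbp. A peak at such a start cannot be assigned to one of both genes.

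**Figure D4:**
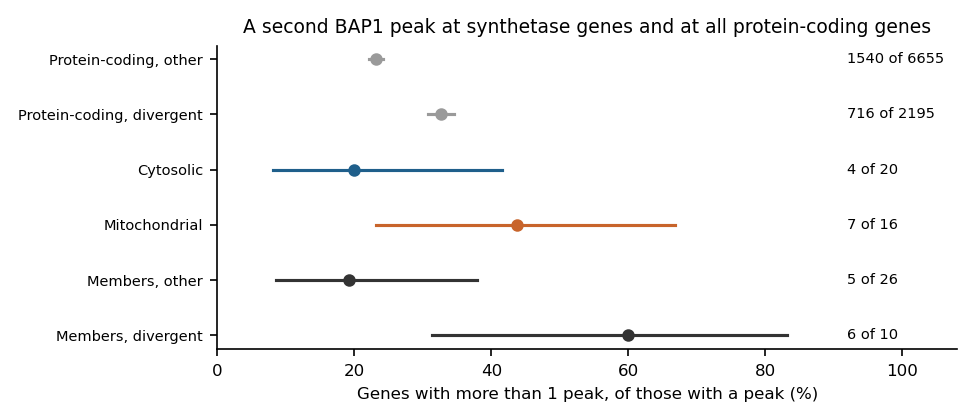
Share of genes with more than 1 BAP1 peak within 1 kb among genes with a peak (%, horizontal axis), with Wilson 95% intervals as lines, for all protein-coding genes, for the synthetase genes by compartment, and for those with a divergent partner and the others. The members with a divergent partner lie highest, at 60.0%, with an interval from 31.3 to 83.2%.

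Cytosolic and mitochondrial genes were paired where their symbols differed only by the final 2, which gave pairs for 13 amino acids. In 13 of 13 pairs both genes had a peak. Ears2, Fars2 and Pars2 were left unpaired, as their cytosolic counterparts have other symbols (Eprs, Farsa and Farsb). The peak was nearer to the TSS in the cytosolic gene in 5 pairs and in the mitochondrial gene in 8. The most unlike pair was leucyl, with the nearest middle 142 bp upstream in Lars and 23 bp upstream in Lars2. The most alike were alanyl, at 30 bp upstream in Aars and 24 bp upstream in Aars2, and cysteinyl, at 1 bp downstream in Cars and 7 bp downstream in Cars2. The mitochondrial gene had more peaks in 3 pairs (Cars2, Sars2 and Wars2), the cytosolic gene in 0, and 10 pairs had equal numbers.

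The other genes of tRNA charging and synthesis also had peaks. Their shares can be read against the 39.6% of all protein-coding genes and the 66.3% of those with a CpG ratio of at least 0.507. The 8 enzymes of the multisynthetase complex (Dars, Eprs, Iars, Kars, Lars, Mars, Qars and Rars) had a peak in 8 of 8 (67.6 to 100%). Its scaffold genes had one in 3 of 3, 258 bp upstream in Aimp1, 99 bp upstream in Aimp2 and 71 bp upstream in Eef1e1. With so few scaffold genes, the interval (43.9 to 100%) held 66.3%. The share was 10 of 10 (72.2 to 100%) for genes of mitochondrial tRNA charging and processing. It was 17 of 17 (81.6 to 100%) for nuclear tRNA processing and editing. For the subunits and factors of RNA polymerase III, which transcribes tRNA genes, it was 20 of 20 (83.9 to 100%).

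Of the genes of the response to uncharged tRNA, 11 of 14 had a peak (78.6%, 52.4 to 92.4%), an interval that held 66.3%. Those with a peak included Eif2ak4, at 186 bp upstream, Gcn1l1, the activator of that kinase, at 33 bp upstream, and Atf4 itself, with 2 peaks and the nearest 35 bp downstream. Phgdh, of serine synthesis, had its nearest peak at 8870 bp, Chac1, which breaks down glutathione, at 62504 bp, and Slc7a11, the cystine transporter, at 781224 bp. In this list the amino acid response element was found in a peak of 3 of the 11 bound genes, the transcription factor gene Ddit3, the pseudokinase gene Trib3 and the asparagine synthetase gene Asns. It was found in a peak of 0 of the 10 mitochondrial tRNA genes, 0 of the 17 nuclear tRNA processing genes and 0 of the 20 RNA polymerase III genes.

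**Figure D5:**
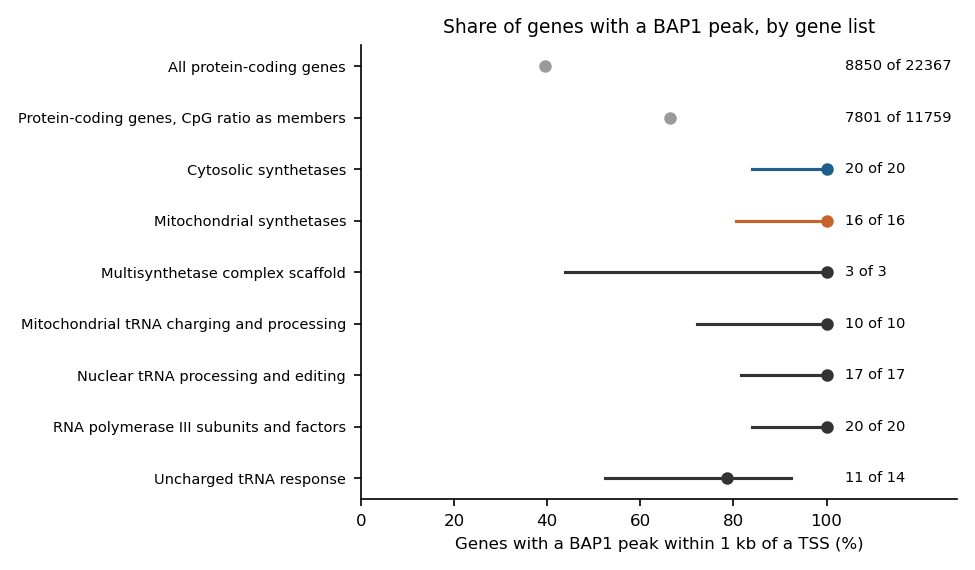
Share of genes with a BAP1 peak within 1 kb of a TSS (%, horizontal axis), with Wilson 95% intervals as lines and the counts at the right, for all protein-coding genes, those with a CpG ratio at or above the lowest synthetase gene, both sets of synthetase genes and the lists of related genes. The uncharged tRNA response, at 78.6%, is the one list of related genes below 100%.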

How the data were processed

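ChIP-Seq of BAP1 was measured in Ba/F3 cells. Per the study's methods and the submitters' processing notes, the reads were mapped to mm9 with Bowtie 1.0.0 and peaks called with MACS 1.4.2 against input DNA. The deposited values are peak start and end positions in bp, called by the authors from the anti-BAP1 and anti-FLAG samples together, each 200 bp wide, with no score. The threshold and the rule that joined both samples are not given in the sources used here, and another threshold would change each share. Depth is unknown.

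Peak middles were placed on GENCODE M1 (NCBIM37, the same build as mm9) without the mitochondrial genome, with Python 3.11.15, numpy 2.4.6, scipy 1.17.1 and pysam 0.24.0. A gene was bound when a middle lay within 1 kb of a TSS of any of its transcripts. CpG ratios and promoters used the longest transcript. Older symbols came from RefSeq. Shares have Wilson and differences Newcombe 95% intervals. Distances were tested on simulated data against bedtools 2.31.1.

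The members, gene lists and motifs were chosen with earlier results of these data known, and the divergent partner, CpG and amino acid element comparisons after the peaks were seen. The position of the nearest peak is given for each member. Further values were given for members with more than 1 peak, a nearest middle over 200 bp away or a divergent partner, and other genes were named only from the lists or as partners. Alternatives changed the part of the peak, the TSSs, the window, the merging of peaks, the members compared and the stretch searched for motifs. The H2AK119ub and input samples were not analysed here.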

Additional observations from a re-analysis of the deposited data

How the results depend on the processing

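All 36 members had a peak, and the difference between compartments was 0, with the nearest peak edge in place of the middle, with the TSS of the longest transcript or of protein-coding transcripts, with windows of 500 bp, 2 kb and 5 kb, and with peaks within 500 bp merged. The compartments also differed by 0 without Kars and Gars, over the pairs matched by symbol, and without members with a divergent partner. The median distance to a TSS was 0 bp from the nearest edge, because most intervals cover a TSS, and 40.5 bp with the longest transcript only. The count of distinct peaks ranged from 36 with merging to 51 with the 5 kb window. Merging left 1 member with more than 1 peak, the 5 kb window gave 15, and the other settings 11. The difference between members with and without a divergent partner turned from 40.8 to -3.85 percentage points with merging, fell to 25.4 with the 5 kb window and stayed at 40.8 in the other settings. The share of members with the amino acid response element was 25.0% when the stretch searched reached 250 bp past the TSS, where 5.15% of all promoters held it, and that with SP and KLF matches was 86.1%, against 63.9% in the shorter stretch, while it was 53.0% and 44.3% of all promoters. A stricter peak threshold was not run, as the deposited list has no score. No paired analysis was possible because the anti-BAP1 and anti-FLAG samples gave 1 list together, without values per sample. The H2AK119ub and input samples, among them those of the same knockout clones, were not analysed here.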

Other observations

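The amino acid response element was rare under BAP1 peaks at gene starts, at 78 of 9805 peaks, and 71 of these lay at genes that are not synthetase members. The 83 protein-coding genes concerned, which carry 82 distinct symbols, included, beside the 7 synthetase genes, the amino acid transporter genes Slc1a4, Slc1a5, Slc38a1, Slc6a9 and Slc7a1, the proline synthesis gene Pycr1, the folate enzyme gene Mthfd1l and the endoplasmic reticulum stress gene Herpud1. These names were chosen after the list was seen, for their known roles, and no test was made of them. S100pbp, the divergent partner of Yars, is among the 83 as well and shares the peak of Yars.

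The further peak inside Aars stood far up the deposited list, which runs in order of distance to the nearest TSS. The entries up to 100 places on either side of it had a median distance of 14.0 bp to a GENCODE M1 start, while this peak was 8414 bp from the nearest Aars start and 14302 bp from the nearest other one. The peaks inside Aars2 and Lars stood where the median distances were 5066 bp and 18924 bp.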
